A study of Rattus norvegicus with 2 samples.

Results

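Desmosomal cadherins and plaque proteins were compared in fetal Sprague Dawley rat skin between an E19 pool (day 18.5) and an E16 pool (day 16.5). The E19 pool held RNA of 3 samples and the E16 pool RNA of 4 samples, and the labels name no treatment. Both pools were hybridised together to 2 dye-swapped Agilent arrays, so each stage is 1 pool measured in both dyes. The array that carries E19 in Cy5 is called the E19-Cy5 array here, and the array that carries it in Cy3 the E19-Cy3 array. The genes were the array rows named Dsc1, Dsc2, Dsc3, Dsg2, Dsg3, Dsp, Pkp1, Pkp3, Jup or Perp after removal of the endings the array adds to predicted or mapped genes. This rule found 9 of the 10 genes, on 11 probes, among 14835 genes with a detected probe. The tenth, Dsg3, stands on the array as LOC291752, and was joined through that gene ID, which RefSeq names Dsg3. Its values are given beside the 9.

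Desmosomes are spot junctions that tie the keratin filaments of neighbouring epithelial cells together. Their desmocollins (Dsc) and desmogleins (Dsg) are cadherins that bind across the gap between cells. Plakoglobin (Jup) and the plakophilins (Pkp) bind the cadherin tails, desmoplakin (Dsp) links that plaque to keratins, and Perp is a membrane protein of the same junction. In stratified epidermis the cadherin isoforms change with depth: in the mouse and in humans Dsc1 is known from upper layers and Dsc3 and Dsg3 from lower ones, while Dsc2 and Dsg2 are the isoforms of simple epithelia and heart.

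The desmocollin genes lie side by side in the cadherin cluster, which is why their promoter windows are shown together. Each window runs from 250 bases before to 50 bases after the start in the RefSeq table of the GRCr8 build and is given 5′ to 3′ on the gene's strand. Dsc3 is at chr18:11688822-11689121 (minus strand), Dsc2 at chr18:11757417-11757716 (minus strand) and Dsc1 at chr18:11803473-11803772 (minus strand). Capitals mark letters that match CCNCACCC, the CACCC box that KLF factors bind, or the p53 family half-site, on either strand.
Dsc3: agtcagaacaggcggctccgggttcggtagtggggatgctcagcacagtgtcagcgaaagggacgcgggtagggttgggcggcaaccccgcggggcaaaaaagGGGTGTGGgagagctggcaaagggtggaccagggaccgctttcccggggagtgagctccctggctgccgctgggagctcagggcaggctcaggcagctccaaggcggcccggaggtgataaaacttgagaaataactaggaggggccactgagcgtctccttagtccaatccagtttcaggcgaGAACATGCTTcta
Dsc2: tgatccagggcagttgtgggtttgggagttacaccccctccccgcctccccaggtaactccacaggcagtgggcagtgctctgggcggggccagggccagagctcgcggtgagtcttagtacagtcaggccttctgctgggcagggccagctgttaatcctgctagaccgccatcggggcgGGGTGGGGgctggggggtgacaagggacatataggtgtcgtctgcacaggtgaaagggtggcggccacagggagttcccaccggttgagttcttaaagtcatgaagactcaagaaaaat
Dsc1: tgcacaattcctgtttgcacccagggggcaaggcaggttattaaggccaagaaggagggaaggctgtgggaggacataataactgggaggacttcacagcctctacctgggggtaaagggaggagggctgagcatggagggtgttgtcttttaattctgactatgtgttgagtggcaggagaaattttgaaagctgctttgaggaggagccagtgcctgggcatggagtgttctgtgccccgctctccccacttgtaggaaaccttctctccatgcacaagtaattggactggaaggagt
The Dsc3 window holds both motifs, the Dsc2 window holds the CACCC box, and the Dsc1 window holds neither. The CACCC box was in 15.3% of 33469 promoter windows of the same length. It was in 5 of the 10 windows found for the desmosomal genes and Dsg1 (Dsc3, Dsc2, Dsg1, Dsg3 and Dsg2), which include genes higher and genes lower in E19. The half-site was in 7.98% of all windows and in 2 of those 10 (Dsc3 and Dsg3). The share of G and C letters ran from 52.0% (Dsc1 and Dsg3) to 75.0% (Dsp) in the 10, against a median of 51.7% over all windows. The background was not matched for it. The matches of different motifs share 0 bases in the Dsc3 window. The GRHL motif AACCGGTT (0.173% of all windows) and the TATA box TATAAA (14.2%) were in none of the 10, and the AP-1 motif TGANTCA (7.33%) was in the Perp window. The Dsc3 window has 16 CG pairs, the Dsc2 window 10 and the Dsc1 window 1, against a median of 7 over all windows. The start that the table uses for Dsc1 lies 28346 bases inside the outer end of the Dsc1 gene model, and the start used for Dsc2 lies 125 bases inside its own.

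Of the 9 genes, 7 rose in E19 by at least 2-fold on both arrays (Dsc1, Dsc3, Dsp, Perp, Pkp1, Pkp3 and Jup), and 0 rose in E16. Of all detected genes, 4.13% rose in E19 by this rule and 3.74% rose in E16. With median centring of each array in place of loess, 3 of the 9 passed towards E19 (Dsc1, Dsc3 and Pkp1). Of all detected genes, 367 passed towards E19 with median centring, against 612 after loess. Dsg3 also passed towards E19 after loess, which makes 8 of 10. Dsc2 and Dsg2 did not pass in either direction, and both were lower in E19. The median log2 ratio of E19 over E16 of the 9 was 1.58, with 1.58 on the E19-Cy5 array and 1.55 on the E19-Cy3 array, beside a median of 0.02 over all detected genes. With 1 pool per stage there is no test and no replicate check of any stage difference. The ± values below are the SD of both arrays and hold technical spread only. In skin RNA, fewer cells of a type and less RNA per cell cannot be told apart.

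**Figure D1:**
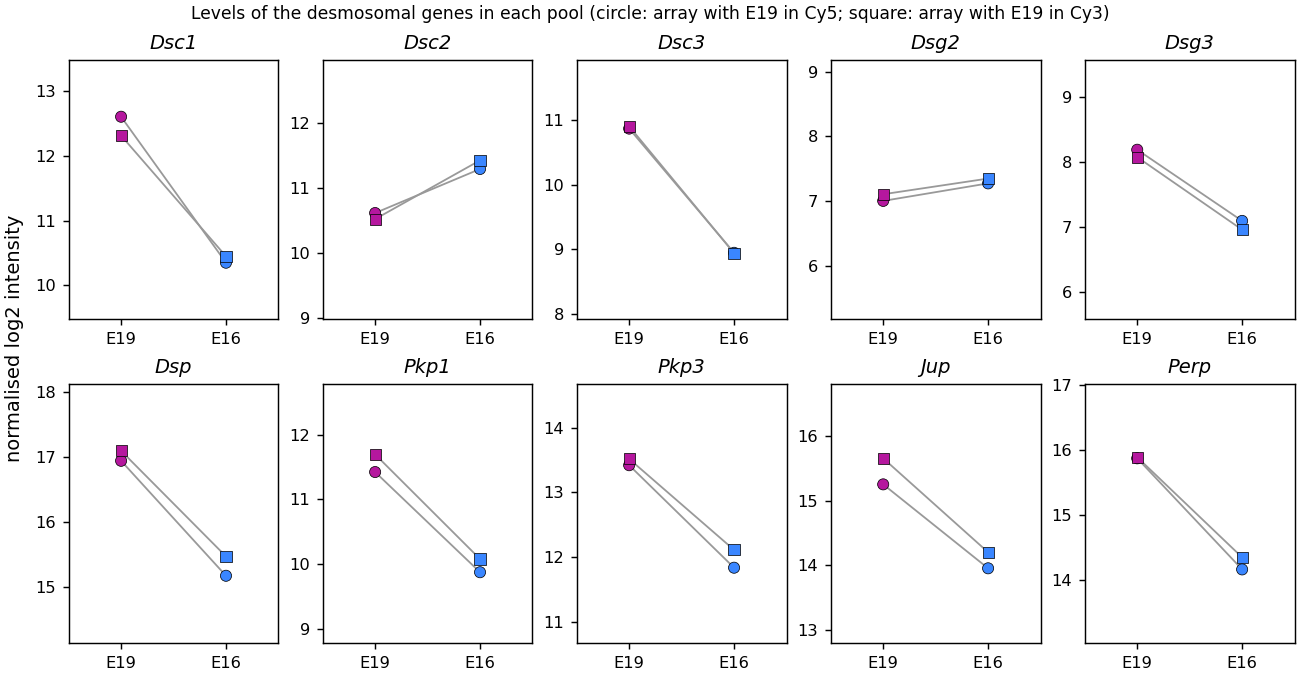
Normalised log2 intensity of each desmosomal gene (vertical axis, spanning the same width of 4 log2 units in each panel) in the E19 pool (left) and the E16 pool (right); lines join the pools on 1 array, with circles for the E19-Cy5 array and squares for the E19-Cy3 array. In 8 panels both E19 points lie above both E16 points, and in the Dsc2 and Dsg2 panels they lie below.

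The share of array spots that exceeded background clearly was 71.5% to 74.3% over the 4 channels, and the ratios of both arrays correlated at r = 0.90 across detected genes, which are not independent replicates. All 10 genes were well above background in both pools on both arrays, and 0 of their spots were saturated or marked as outliers. Levels are normalised log2 intensities, given first for the E19-Cy5 array and then for the E19-Cy3 array, and are compared only within a probe. The summed intensities of marker lists below are the exception. They add probes of different genes, so the brightest probes weigh most. Where the sums of 1 pool differ between the arrays, the difference is technical.

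Among the desmocollins, Dsc1 of the upper layers had levels of 12.60 and 12.31 in E19, against 10.35 and 10.45 in E16. Both E19 levels lay above both E16 levels, and the ratio was 4.16-fold towards E19 (log2 2.06 ± 0.28), with a larger ratio in 85 of 14835 genes. Dsc3, the desmocollin of lower layers, had 10.86 and 10.90 in E19, against 8.95 and 8.94 in E16. Its ratio was 3.83-fold (1.94 ± 0.03), the next largest of the desmosomal genes, so the upper and the lower layer desmocollin both rose. Dsc2, the desmocollin of simple epithelia, heart and other tissues, had 10.61 and 10.52 in E19, against 11.29 and 11.43 in E16. Both E19 levels were lower without overlap, but the ratio did not reach 2-fold (-0.79 ± 0.16, or 1.73-fold higher in E16). A dimmer Dsc2 probe gave -0.67 ± 0.33. Levels below those of E16 without overlap were seen for 32.4% of detected genes, and above without overlap for 37.5%, so a lack of overlap alone is common on these arrays. The ratio of Dsc1 exceeded that of Dsc2 by 2.85 ± 0.12 on the log2 scale, and that of Dsc3 exceeded it by 2.73 ± 0.19.

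Among the desmogleins, Dsg2, the isoform of simple epithelia and heart, had 7.004 and 7.106 in E19, against 7.274 and 7.349 in E16. This probe was dim, and its ratio was -0.26 ± 0.02, with a lower ratio in 22.4% of all genes. Dsg3, the pemphigus vulgaris antigen, had 8.19 and 8.08 in E19, against 7.10 and 6.96 in E16. Its ratio was 1.11 ± 0.02, 2.16-fold and close above the 2-fold limit, on a dim probe. The size depended on how background was treated: 1.59 at a normexp offset of 0 and 2.15 with Feature Extraction's processed signals. After centring on spike-in RNAs it was 0.89 and did not pass.

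The plaque genes rose by similar amounts. Desmoplakin, Dsp, had 16.94 and 17.10 in E19, against 15.17 and 15.47 in E16. Its ratio was 3.25-fold (1.70 ± 0.10), and its other probe gave 1.59 ± 0.18. Plakophilin 1, Pkp1, which is strongest in upper layers, had 11.42 and 11.69 in E19, against 9.88 and 10.08 in E16, a ratio of 2.99-fold (1.58 ± 0.05). Plakophilin 3, Pkp3, which is found through all layers, had 13.42 and 13.52 in E19, against 11.84 and 12.11 in E16. Its ratio was 2.81-fold (1.49 ± 0.13). Plakoglobin, Jup, which desmosomes share with adherens junctions, had 15.25 and 15.65 in E19, against 13.96 and 14.20 in E16. It had the smallest ratio of the 7 that rose, 2.59-fold (1.37 ± 0.11). Perp, a p63 target in mouse epidermis, had 15.87 and 15.89 in E19, against 14.16 and 14.35 in E16, a ratio of 3.09-fold (1.63 ± 0.12). In each of these 5 genes both E19 levels lay above both E16 levels. With median centring in place of loess, Dsp (0.72), Pkp3 (0.86), Jup (0.71) and Perp (0.78) stayed under 2-fold on the E19-Cy3 array and so did not pass, while Pkp1 did.

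**Figure D2:**
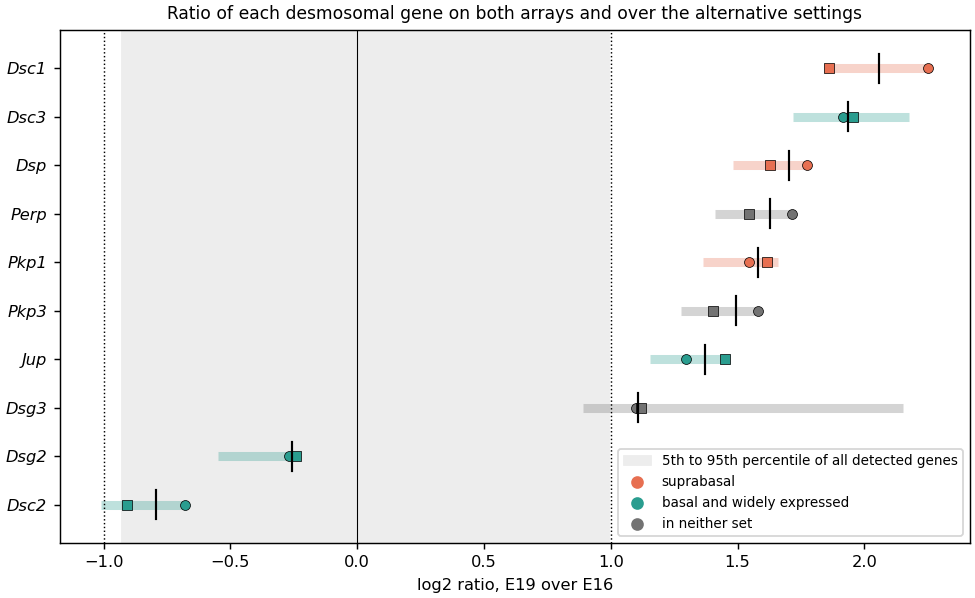
Log2 ratio of E19 over E16 (horizontal axis) of each desmosomal gene, with a circle for the E19-Cy5 array, a square for the E19-Cy3 array, a black bar for their mean and a pale bar for the range over the alternative settings; dotted lines mark 2-fold, and the grey band spans -0.93 to 0.99, the 5th to 95th percentile of all detected genes. The genes of the suprabasal set lie together at 1.58 to 2.06, while those of the basal and widely expressed set run from -0.79 to 1.94.

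The suprabasal set (Dsc1, Pkp1 and Dsp) was set against the basal and widely expressed set (Dsc3, Dsc2, Dsg2 and Jup). Dsp is a plaque gene of desmosomes in general and not of upper layers alone, so the contrast is not one of layers alone. The median ratio was 1.70 in the suprabasal set, with 3 of 3 genes past the rule, and 0.56 in the basal and widely expressed set, with 2 of 4. The difference of medians was 1.26 on the E19-Cy5 array and 1.02 on the E19-Cy3 array, a mean of 1.14 ± 0.17. The sets overlapped. Dsc3 lay above both Dsp and Pkp1. The isoforms known from simple epithelia, Dsc2 and Dsg2, were the 2 genes below 0, a grouping made after the values were seen.

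Along rat chromosome 18 the RefSeq table lists 7 protein-coding genes from Dsc3 to Dsg2, all desmosomal cadherins. Dsc2 lies between Dsc3 and Dsc1, so in this row a gene that was lower in E19 is flanked by a pair that rose. Dsg1, the desmoglein of upper layers, is next. Its probe carries an older name and was joined through the gene ID in its description. It had 15.23 and 15.43 in E19, against 13.56 and 13.48 in E16, a ratio of 1.81 ± 0.20. A probe named LOC679010, which the files describe as similar to desmoglein 1 alpha, had a ratio of 1.998 ± 0.065. Whether these probes share signal between desmoglein 1 copies was not tested. Dsg4, the desmoglein of hair shaft cells, was not well above background in either pool. Dsg2 ends the row, and the neighbouring gene Ttr, which encodes transthyretin and is no desmosome gene, was at -2.01 ± 0.51.

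**Figure D3:**
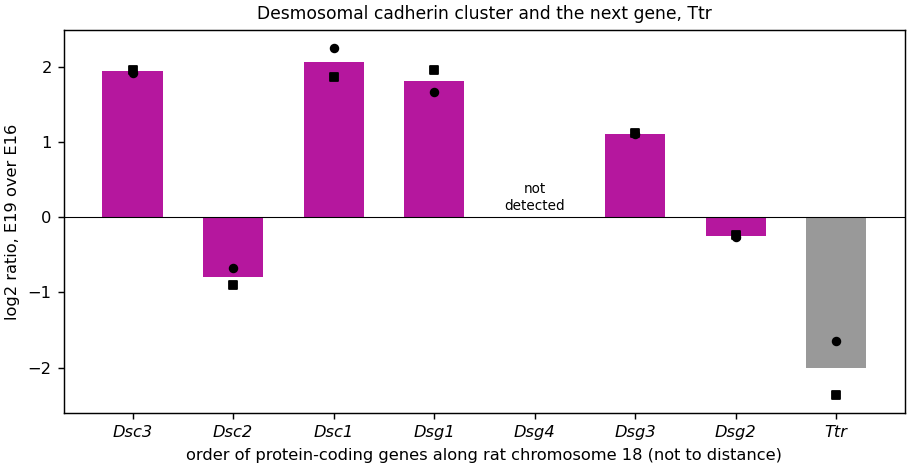
Mean log2 ratio of E19 over E16 (bars, vertical axis) for the desmosomal cadherin genes in their order along rat chromosome 18, with Ttr after them; circles are the E19-Cy5 array and squares the E19-Cy3 array. Dsc2 at -0.79 stands between Dsc3 at 1.94 and Dsc1 at 2.06.

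Other genes of the desmosome and of the envelope it anchors were described in the same way. Of 9 listed, 6 were detected, and 3 rose in E19: Dsg1, the plakin periplakin, Ppl (1.52 ± 0.12), and envoplakin, Evpl (1.21 ± 0.17), which join desmosomes to the cornified envelope. The plakophilins of other tissues did not pass, with Pkp2, which is known from heart and simple epithelia, at 0.25 ± 0.07 and Pkp4 at -0.24 ± 0.10. The periplakin-binding protein gene Kazn was at -0.33 ± 0.11. A dimmer Pkp2 probe gave 0.45 ± 0.09. Adherens junction genes, which build actin-linked junctions, had a median of 0.28, and 1 of 10 rose, Nectin4 (1.28 ± 0.01). Their ratios are of skin RNA and not of keratinocytes alone, so the medians do not compare both junctions within 1 cell type. E-cadherin, Cdh1, was at 0.79 ± 0.10, and the vinculin gene Vcl was at -0.49 ± 0.20. Jup, which both junctions use, had a larger mean ratio (1.37 ± 0.11) than each of these 10 genes. Its lead over Nectin4 was smaller than its SD, with 1.295 for Jup and 1.281 for Nectin4 on the E19-Cy5 array.

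Transcription regulators of epidermal differentiation had a median of 1.14, and 4 of 9 detected rose: Cebpa (1.47 ± 0.26), Klf4 (1.46 ± 0.11), Ovol1 (1.39 ± 0.19) and Grhl1 (1.23 ± 0.02), which controls the desmosomal cadherin gene Dsg1 in mouse epidermis. Tp63, the master regulator of stratified epithelia, had 0.79 on the E19-Cy5 array and 1.49 on the E19-Cy3 array, so it did not pass. In a list of proteases that cut desmosomal proteins, an inhibitor of such cutting and a kinase gene, 4 of 8 detected rose. They were the kallikrein proteases Klk7 (2.25 ± 0.31), Klk6 (1.89 ± 0.10) and Klk8 (1.43 ± 0.14) and Spink5 (2.07 ± 0.54), which encodes an inhibitor of some kallikreins. Klk5, which cleaves corneodesmosome proteins, was at 0.03 ± 0.04, and the sheddase Adam10 was at -0.07 ± 0.17.

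**Figure D4:**
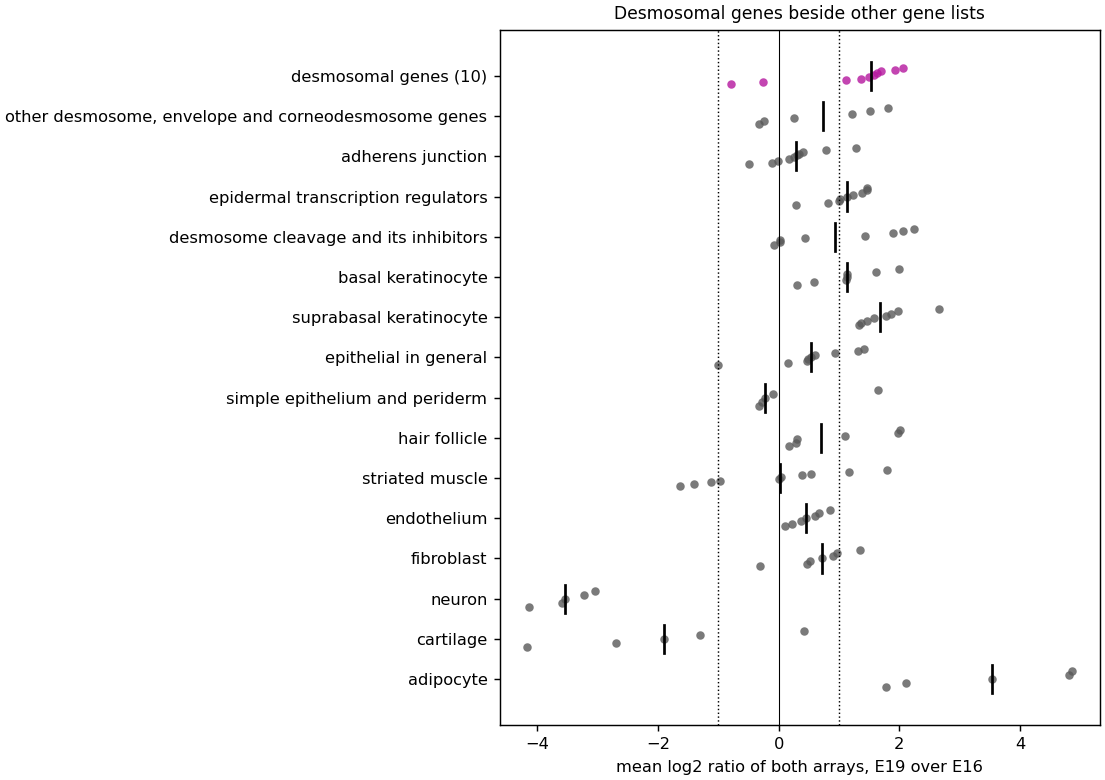
Mean log2 ratio of E19 over E16 (horizontal axis) of each detected gene in the desmosomal list (top) and in each other list, with a black bar at the median of the list and dotted lines at 2-fold. The desmosomal median of 1.54 with Dsg3 lies beside the suprabasal keratinocyte median of 1.68 and above the adherens junction median of 0.28.

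Markers of the cells that carry desmosomes were measured beside these genes. Suprabasal keratinocyte markers had a median of 1.68, and 7 of 8 detected rose, among them Tgm3 (2.65 ± 0.31), Flg (1.97 ± 0.35), Krt10 (1.87 ± 1.04), Tgm1 (1.58 ± 0.14), Ivl (1.47 ± 0.01), Sbsn (1.36 ± 0.01) and Krtdap (1.33 ± 0.45). Krt1 (1.79 ± 1.56) did not pass. Their summed normalised intensity was 1054282 and 1225479 in E19, against 221937 and 575982 in E16. Both E16 sums are of the same pool, so their gap is technical. Basal keratinocyte markers had a median of 1.13, and 3 of 7 detected rose, among them Lamb3 (1.13 ± 0.01) and Krt5 (1.11 ± 0.02). Itgb4 was at 1.14 ± 0.43 and did not pass. Krt14 had the largest mean of that list (2.001), from 3.27 and 0.73 on the separate arrays. Their summed intensity was 596475 and 567188 in E19, against 179710 and 344949 in E16. Col17a1 was on the array but not detected. The part of keratinocyte content in the rise of the desmosomal genes was not tested. General epithelial markers had a smaller median, 0.54, with 2 of 9 risen, Prss8 (1.41 ± 0.44) and Rab25 (1.32 ± 0.23), while Cldn7 was at -1.002 ± 0.060 and did not pass. Their summed intensity was 73715 and 75833 in E19, against 46992 and 42611 in E16.

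Markers of simple epithelia and of striated muscle were also measured, since Dsc2 and Dsg2 are known from simple epithelia and heart. Of the simple epithelial and periderm keratins, Krt7 (-0.32 ± 0.21), Krt18 (-0.27 ± 0.28), Krt19 (-0.23 ± 0.14) and Krt8 (-0.10 ± 0.04) did not pass, and Krt17 rose (1.65 ± 0.30). The list of 5 had a median of -0.23, and its summed intensity was 48371 and 50607 in E19, against 60193 and 51033 in E16. Striated muscle markers, which are not heart genes alone, had a median of 0.02 over 10 genes. Among genes known from heart muscle, Myh6 (-1.64 ± 0.09) and Tnnt2 (-1.11 ± 0.03) rose in E16, while Nppa was at 0.01 ± 0.05 and Actc1 at -0.98 ± 0.85, and neither passed. The muscle genes Myh8 (1.80 ± 0.14) and Ckm (1.17 ± 0.07) rose in E19. Myh3 was at -1.40 ± 0.98. Their summed intensity was 427990 and 263403 in E19, against 560651 and 547808 in E16. Whether the pools held simple epithelial or heart cells, and the part of any such cells in the Dsc2 and Dsg2 values, was not tested. Hair follicle markers had a median of 0.70, and 3 of 6 detected rose: Krt33a (2.01 ± 0.76), Lhx2 (1.99 ± 0.13) and Krt25 (1.09 ± 0.04). Their summed intensity was 190221 and 215329 in E19, against 33686 and 77450 in E16.

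Markers of other tissues in the pools did not move as 1 group. Adipocyte markers rose in E19, 5 of 5, with a median of 3.54 and a range from Plin1 (1.79) over Cidec and Retn to Fabp4 (4.81) and Adipoq (4.87). Neuron markers rose in E16, 5 of 5, with a median of -3.55 and a range from Stmn2 (-4.14) over Ina, Scg3 and Snap25 to Elavl4 (-3.04). Cartilage markers rose in E16, 4 of 5, from Cnmd (-4.16) over Col2a1 and Matn1 to Acan (-1.31), while Col9a1 was at 0.43 ± 0.02. The median of the 5 was -1.90. Endothelial markers had a median of 0.45 with 0 of 7 past the rule, and their largest ratios were Plvap (0.86), Pecam1 (0.67) and Tie1 (0.60). Fibroblast markers had a median of 0.72, from 1.02 on the E19-Cy5 array and 0.29 on the E19-Cy3 array, and 1 of 7 passed the rule, Dcn (1.36 ± 0.04). Dpt was at 0.97 ± 0.08, and Col3a1 at 0.90 ± 1.19, from 1.74 and 0.06 on the separate arrays. The part of these tissues in the desmosomal ratios was not tested.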

How the data were processed

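RNA pools of fetal rat skin were measured on 2 dye-swapped Agilent arrays. Both arrays hold the same pools and count as 1 replicate per stage. Per the file headers, spots were read with version 9.5.1.1 of Agilent's Feature Extraction, which wrote mean spot intensity and median local background for each channel. Per the file headers it also wrote processed intensities, a log10 ratio (Cy5 over Cy3) and its p-value, as well as 0 or 1 marks for detection, saturation and outliers. The deposited table of the authors holds 36824 sequences with a log10 ratio and a p-value, and the way the arrays were combined there is not given in the sources used here. The direction of that ratio was taken as E19 over E16, since it correlated with the ratios of both arrays turned that way (r = 0.90 and 0.89 across detected probes). Its p-values were not used.

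Background was corrected with normexp (offset 50), and loess was fitted in each array with control and outlier spots at weight 0 (limma 3.58.1, R 4.3.3). Outlier spots were left out and saturated spots kept. Log2 ratios were turned to E19 over E16, not as deposited by dye, and averaged over arrays. A probe was detected when it was well above background in at least 1 pool on both arrays, and the brightest detected probe stood for a gene. Levels are per channel after loess and Aquantile normalisation. A gene passed the size rule when it was at least 2-fold the same way on both arrays, and "rose" refers to that rule. Summaries used Python 3.11.15, numpy 2.4.6 and pandas 2.3.3, with plots by matplotlib 3.10.9. Loess and the size rule were tested on simulated arrays with known changes. Background correction, the detection filter, the choice of probe and the level normalisation were not tested in that way. The number of arrays limits the precision. Alternatives covered background correction, dye normalisation, centring, spot and probe filters, the size limit, the deposited table and each array alone.

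Genes other than the desmosomal ones were named by accession, gene ID, current symbol or unique synonym in RefSeq's GRCr8 table. Of 41012 probes, 17606 had no gene name. Array coordinates are not printed because the files name no build. The desmosomal genes and all lists were chosen with earlier results of these data known. Named genes were all desmosomal genes with every probe and, from each list, genes past the size rule and the 3 largest ratios in size, except 1 basal keratinocyte marker that is not reported here. Ttr, the LOC679010 probe and list genes outside that rule (Pkp2, Pkp4, Kazn, Tp63, Klk5, Adam10, Krt1, Krt8, Krt19, Nppa, Actc1 and Col9a1) were added after their values were seen.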

Additional observations from a re-analysis of the deposited data

How the results depend on the processing

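No desmosomal gene's ratio changed sign under any of the 13 alternatives run for single genes. Of 130 values of the 10 desmosomal genes, 100 moved by less than the SD of both arrays and 30 by more. Part of the 100 was fixed in advance and is no sign of stability. A single array cannot differ from the mean of both by more than their SD. The filters on outlier, saturated or undetected spots had no spot of these genes to remove. Feature Extraction's processed signals and its log ratio gave nearly the same values. By over 1.5 times as a fold, only Dsg3 moved. The count of 7 of 9 genes that rose became 3 of 9 with median centring in place of loess (Dsc1, Dsc3 and Pkp1). It was also 3 of 9 at a 3-fold limit (Dsc1, Dsc3 and Dsp). The share of all detected genes past 3-fold was not computed, so that count has no background beside it. Under all other alternatives the count held, in part because it could not change. Each array alone and the 1.5-fold limit keep all genes that passed, and Dsc2 and Dsg2 were below 0. The spot filters had no spot of these genes to act on. The deposited table gives a single ratio per gene, so the rule for both arrays could not be applied there. Under median centring the bright genes differed between arrays, with Dsp at 2.68 on the E19-Cy5 array and 0.72 on the E19-Cy3 array, and their means barely moved (Dsp 1.70, Perp 1.61). The number of all genes that rose in E19 was 612, against 555 that rose in E16. It became 367 and 439 with median centring, 377 and 798 centred on spike-ins, 1012 and 888 with the scanner program's processed signals, 1012 and 888 also with its log ratio, and 1190 and 998 in the authors' deposited table. At a normexp offset of 0 the numbers were 777 and 771. The causes were not tested.

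The median of 1.58 over the 9 genes became 1.63 at a normexp offset of 0, 1.61 with no background subtraction, 1.63 with Feature Extraction's processed signals, 1.63 with its log ratio, 1.53 with median centring, 1.36 centred on spike-ins, 1.62 in the authors' deposited table, and 1.54 with Dsg3 (added after seeing the files). Centring on spike-ins shifted the median of all genes by -0.22. On the separate arrays the median was 1.55 and 1.58, and the difference of suprabasal minus basal and widely expressed medians was 1.02 and 1.26. That difference was 1.33 with median centring and 1.21 with means in place of medians (added after seeing the data). No paired analysis was possible because each stage is 1 pool on both arrays.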

Other observations

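The authors' deposited table, which combines the same 2 arrays and is no independent check, gave log2 ratios of the same sign for all 10 desmosomal genes. In the authors' deposited table Dsc3 stood highest at 2.18, Dsg3 was at 2.15 and Dsc1 at 2.10. In the authors' deposited table Dsc2 was at -0.77 and Dsg2 at -0.55, neither of them 2-fold.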
